A study of Homo sapiens with 12 samples.

Results

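The genes described here are 10 genes of cellular iron handling: TF, TFRC, TFR2 and SLC11A2 for uptake, FTH1 and FTL for storage, SLC40A1 and CP for export, and HAMP and IREB2 for regulation. They were picked out by gene name in the deposited tables, by a rule with no threshold on a measured value, and are 10 of 58735 genes listed. All 10 passed the filter on low counts, but TF, TFR2, HAMP and CP passed it through Huh7 alone, since no HLF group held more than 3 counts of TF, TFR2 or HAMP, or more than 7 of CP.

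Poly-A RNA was sequenced from Huh7 and HLF, a pair of human hepatocellular carcinoma lines, described as wild-type, each in 3 cultures with 2 biological replicates (12 libraries, 6 groups). In Inject-Embed, a suspension of 4000 Huh7 or 2000 HLF cells per well was injected into set Matrigel, a basement membrane gel. In Mix-Embed, 20000 Huh7 or 10000 HLF cells per well were mixed into Matrigel and laid over a set layer of it. In 2D, the cells grew flat on plastic without the gel. All groups shared DMEM with fetal bovine serum and antibiotics. The 3D cultures were harvested after 6 to 8 days and the 2D cultures after 2 days, near confluence. Gel, cell number and days in culture therefore cannot be told apart in a comparison with 2D. The 3D cultures share the gel and the harvest window, and differ in cell number and in the way of embedding, which cannot be told apart between them. Each line is 1 established tumour line, so a difference between Huh7 and HLF is a difference between these lines.

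Iron circulates bound to transferrin, which the transferrin receptor carries into endosomes; there the metal is reduced and passes into the cytosol through the transporter DMT1. What the cell does not use is stored in ferritin, a shell of heavy and light chains, or leaves through ferroportin, and the copper oxidase ceruloplasmin oxidises it so that transferrin can bind it. Hepatocytes secrete transferrin, ceruloplasmin and hepcidin, the hormone that removes ferroportin from the cell surface. Inside cells the iron regulatory proteins bind a hairpin named the iron-responsive element (IRE): in a 5′ untranslated region (UTR) it blocks translation when iron is scarce, and in the 3′ UTR of the transferrin receptor it protects the mRNA. Hepcidin transcription is driven by BMP and SMAD signals and by IL-6 through STAT3.

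Hairpins of the members are shown because they mark mRNAs whose own sequence matches a strict form of this element. They were found in GENCODE v44 transcripts (GRCh38) by a fixed pattern: a bulged C, 5 bases that pair with 5 on the other side (G with T allowed), and between them a loop of the letters CAGTGN. Capitals mark the 6-base loop in each 28-base window, read 5′ to 3′ on the strand of the gene. The FTH1 and FTL windows lie in the 5′ UTR at chr11:61967574-61967601 (minus strand) and chr19:48965336-48965363 (plus strand), and the SLC40A1 window in the 5′ UTR at chr2:189580661-189580688 (minus strand).
FTH1: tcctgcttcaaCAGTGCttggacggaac
FTL: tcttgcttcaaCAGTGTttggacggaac
SLC40A1: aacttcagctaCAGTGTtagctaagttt

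TFRC held 4 windows in its 3′ UTR, on the minus strand of chromosome 3 at chr3:196050979-196051006, chr3:196050575-196050602, chr3:196050510-196050537 and chr3:196050463-196050490, in the order of the mRNA.
TFRC window 1: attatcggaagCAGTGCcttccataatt
TFRC window 2: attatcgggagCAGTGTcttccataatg
TFRC window 3: tgtatcggagaCAGTGAtctccatatgt
TFRC window 4: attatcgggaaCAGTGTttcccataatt

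The pattern also matched TF, in the 3′ UTR at chr3:133792674-133792701 (plus strand) of a canonical transcript of 20166 bases. It matched 258 of 19701 canonical coding transcripts (1.31%), and 5 of the 10 members. No window was found in SLC11A2, TFR2, HAMP, CP or IREB2 under this pattern, which says only that these letters were not there. Hairpins with another bulge, stem or loop were not searched for. A match is a description of the sequence, and binding was not measured.

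Library totals ran from 12325877 to 16041906 counts, and 3 counts equal 0.178 to 0.255 CPM, the count scaled to a common library size with TMM, depending on the library. In Huh7 all 10 hepatocyte markers checked, among them ALB and APOA1, were over 1 CPM, and summed to 34474 to 35900 CPM in Inject-Embed, 39683 to 40249 CPM in Mix-Embed and 42127 to 44190 CPM in 2D. In HLF only 2 or 3 of the 10 were over 1 CPM, with sums of 32.6 to 169 CPM, so the defining hepatocyte markers were largely missing from HLF. All 6 mesenchymal markers were over 1 CPM in HLF (2741 to 3542 CPM summed), against 3 of 6 in Huh7 (108 to 179 CPM). No macrophage marker, of 6, was over 1 CPM in any group. Of 5 stellate or fibroblast markers, 4 were over 1 CPM in each HLF group (178 to 227 CPM summed). In Huh7, 2 or 3 of them were (6.89 to 16.6 CPM). At most 1 of 4 endothelial and 1 of 7 erythroid markers was over 1 CPM in any group.

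The order of the members by level was set by deposited FPKM, a count divided by library total and by gene length. FTL, the ferritin light chain, was the highest member in every group, at 3399 ± 65, 2518 ± 79 and 2176 ± 28 FPKM in Huh7 Inject-Embed, Mix-Embed and 2D and 1053 ± 17, 1031 ± 2.0 and 1284 ± 48 FPKM in HLF (SD, n = 2 each). FTH1, the heavy chain, came next in every group, at 429 ± 16 FPKM in Huh7 Inject-Embed and 312 ± 13 FPKM in Huh7 2D. In Huh7 these were followed by TF and TFRC, at 189 ± 2.9 and 112 ± 3.5 FPKM in 2D, and HAMP came last, at 0.636, 1.43 and 0.695 FPKM in Inject-Embed, Mix-Embed and 2D. In HLF, where TF had at most 1 count per group, the order ran FTL, FTH1, TFRC, IREB2, SLC11A2 and SLC40A1 in all 3 cultures, with the remaining 4 members at or near 0.

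By this measure some neighbours changed place in Huh7. CP stood above IREB2 in Mix-Embed and in 2D, and IREB2 stood above CP in Inject-Embed, at 21.4 ± 1.0 and 7.57 ± 0.22 FPKM. SLC11A2 stood above SLC40A1 in Inject-Embed, at 7.03 ± 0.30 and 4.74 ± 0.19 FPKM, the pair overlapped in Mix-Embed, and SLC40A1 stood above SLC11A2 in 2D, at 12.8 ± 0.46 and 7.95 ± 0.12 FPKM. The deposited gene length is longer than the canonical transcript for every member, from 1.01 times for FTL to 7.41 times for HAMP. Much of the order below FTL therefore depends on the length used. Per kilobase of canonical transcript or of coding sequence, SLC11A2 stood above SLC40A1 in all 3 Huh7 cultures and above IREB2 in all 3 HLF cultures, and TFR2, not HAMP, came last in Huh7 Inject-Embed and Mix-Embed. Per kilobase of coding sequence, IREB2 stood above CP in all 3 Huh7 cultures, and TF stood above FTH1 in Huh7 Mix-Embed and 2D but not in Inject-Embed. FTL came first by all 3 lengths in every group.

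**Figure D1:**
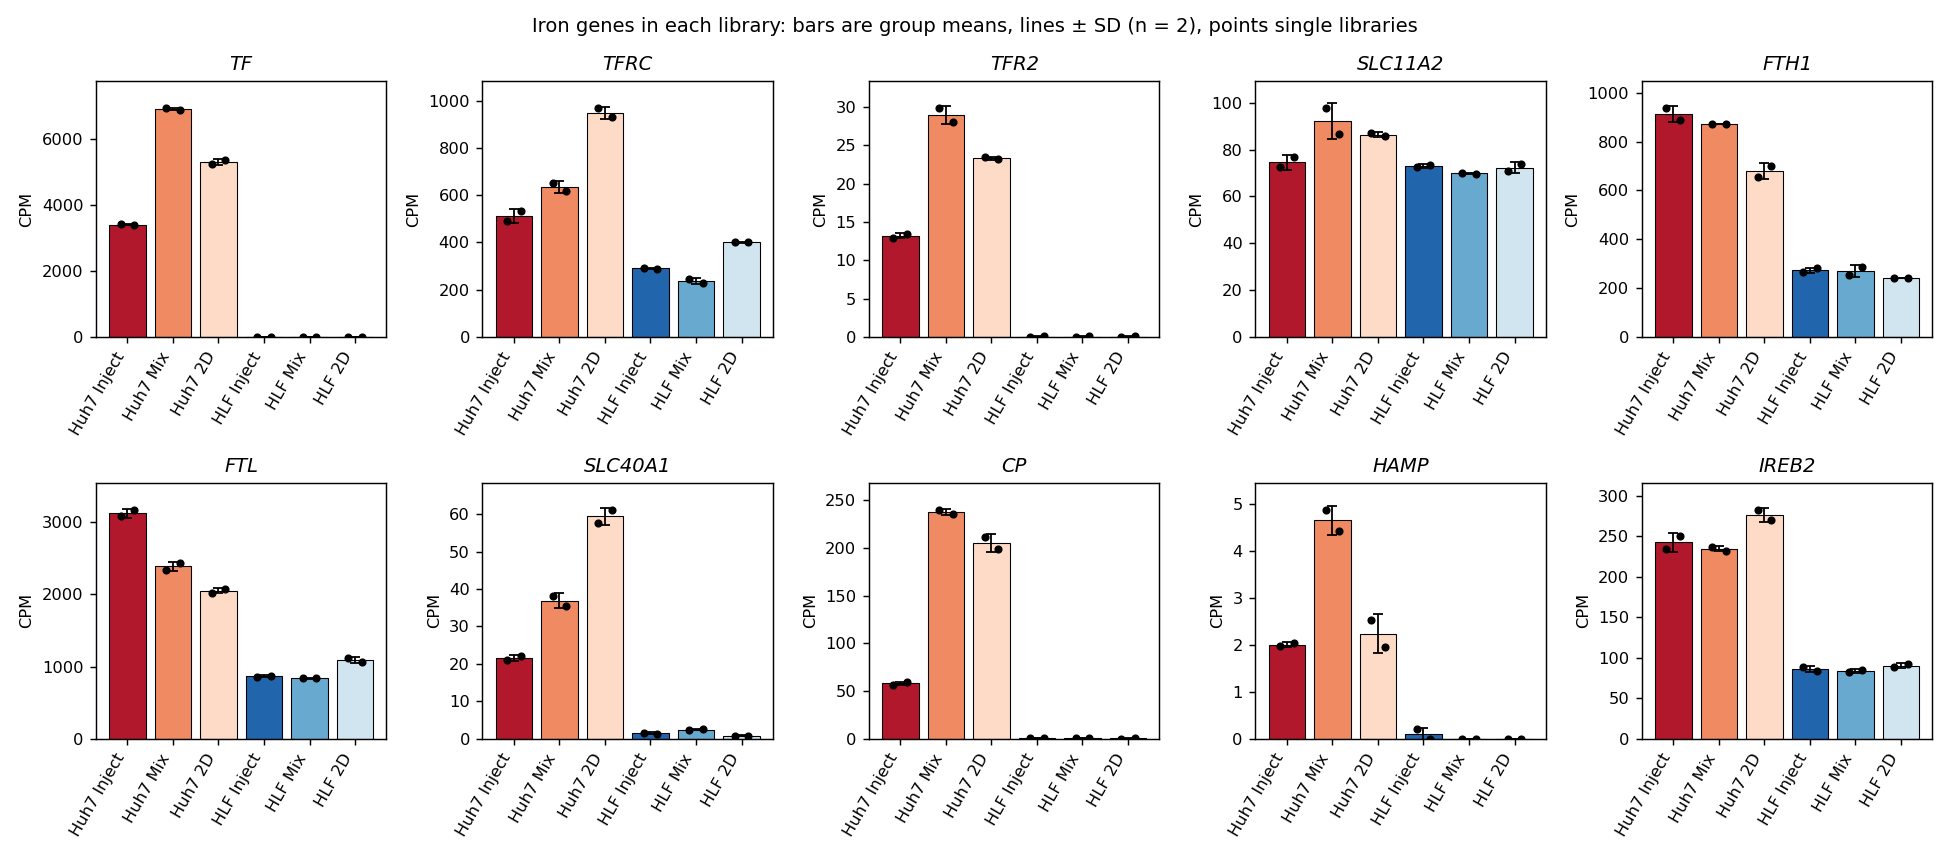
Level of the 10 iron genes in CPM (vertical axes, each panel with its own scale from 0) in the 6 groups of line and culture. Bars are group means, lines ± SD with n = 2, and points single libraries. The bars of TF, TFR2 and CP are seen in Huh7 and lie at or near 0 in HLF, FTL is highest in Huh7 Inject-Embed, and TFRC is highest in the 2D culture of each line.

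In Huh7, Inject-Embed moved most of the members. Against 2D, the ferritin chains FTH1 and FTL rose, while TF, TFRC, TFR2, SLC11A2, SLC40A1, CP and IREB2 fell, which is 9 of 10 members called, 2 higher and 7 lower. Of all genes tested 29.9% were called, 13.2% higher and 16.7% lower. The test was edgeR's quasi-likelihood test with Benjamini-Hochberg adjustment over all 19342 genes tested, and a call is an adjusted p under 0.05. The median log2 change of the 10 members was -0.43, beside -0.01 for all genes tested. The largest changes were those of CP, at 0.282 times its 2D level, and SLC40A1, at 0.362 times. Huh7 Mix-Embed had another pattern against 2D, with 8 members called (beside 21.7% of all genes): 5 were higher (TF, FTH1, FTL, HAMP and CP, beside 11.2%) and 3 lower (TFRC, SLC40A1 and IREB2, beside 10.6%), with a median of 0.22 for the members and 0.00 for all genes. Set directly against Mix-Embed, Inject-Embed had 8 members called (beside 22.9% of all genes), 1 higher (FTL, beside 9.55%) and 7 lower (all but FTH1, FTL and IREB2, beside 13.4%), with a median of -0.54 for the members and -0.03 for all genes. The comparisons of one line share libraries, so they are not independent of one another.

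HLF changed in fewer members. Against HLF 2D, HLF Inject-Embed had 3 members called (beside 17.9% of all genes), with FTH1 higher (1 member, beside 9.09%) and TFRC and FTL lower (2 members, beside 8.86%). HLF Mix-Embed had 4 called (beside 29%), with FTH1 and SLC40A1 higher (2 members, beside 14.4%) and TFRC and FTL lower (2 members, beside 14.6%). Between the 3D cultures of HLF, only TFRC was called, higher in Inject-Embed (1 member, beside 8.27% of all genes called, 3.56% higher and 4.71% lower). The member medians were 0.02, 0.01 and 0.03 in these comparisons, and 4 of the 10 members hold 7 or fewer counts per HLF group. The libraries are bulk RNA, in which fewer cells of a type and less RNA per cell cannot be told apart.

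**Figure D2:**
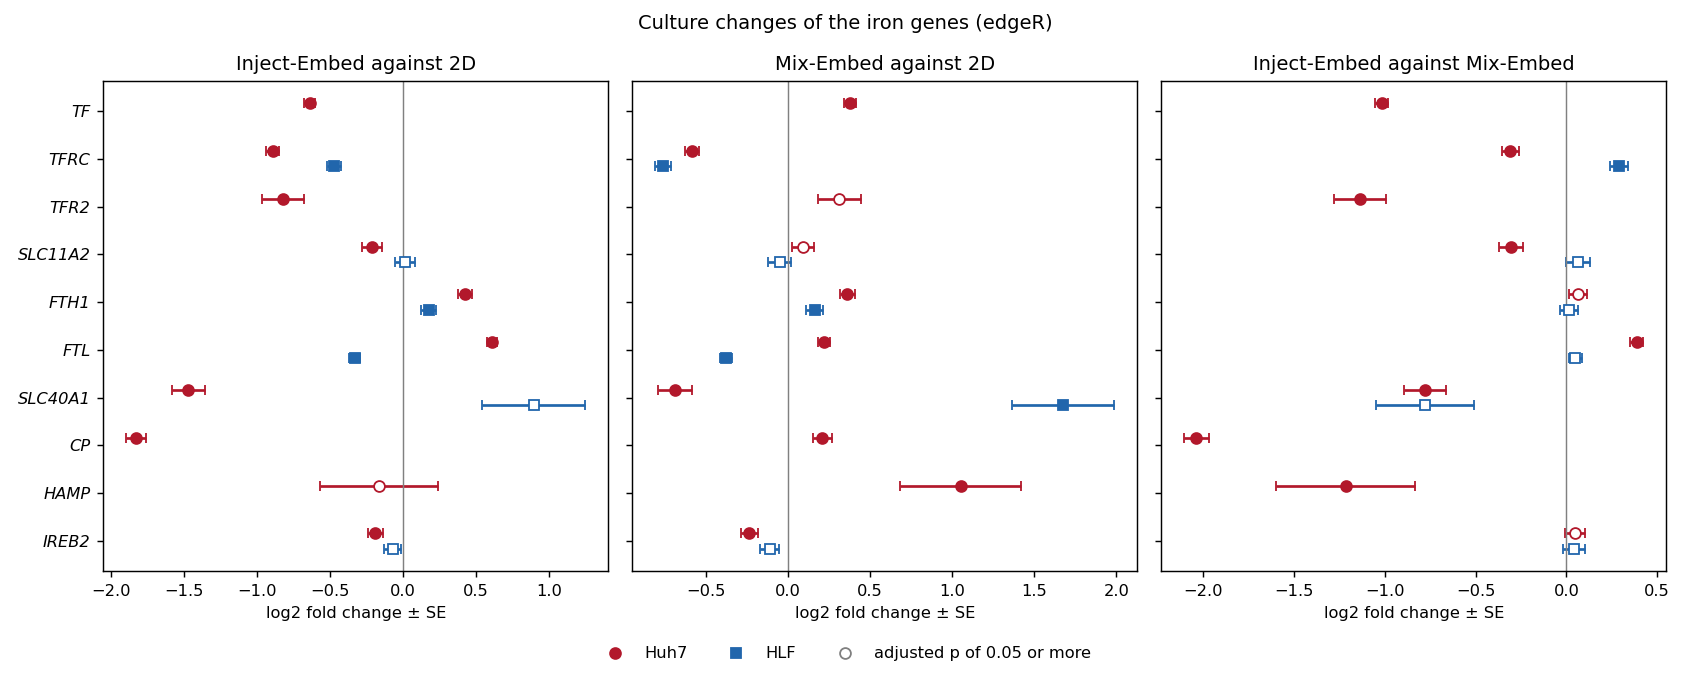
Log2 fold change ± SE of each iron gene (horizontal axes) for Inject-Embed against 2D, Mix-Embed against 2D and Inject-Embed against Mix-Embed, from edgeR, with Huh7 as red circles and HLF as blue squares. Open symbols have an adjusted p of 0.05 or more, and genes with 7 or fewer counts per HLF group carry no HLF symbol. In both comparisons with 2D, TFRC lies left of 0 in both lines, and FTL lies right of 0 in Huh7 and left of 0 in HLF. In the same comparisons SLC40A1 lies left of 0 in Huh7 and right of 0 in HLF, with an open symbol for HLF Inject-Embed.

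TF (ENSG00000091513, chr3:133745956-133796640, plus strand) encodes transferrin, the iron carrier of plasma. It had 3413 and 3403 CPM in Huh7 Inject-Embed, 6928 and 6879 CPM in Mix-Embed and 5233 and 5379 CPM in 2D. The 3 groups did not overlap: Inject-Embed was lowest and Mix-Embed highest. TF changed by -0.64 ± 0.04 (SE, log2; adjusted p = 9.51e-19) in Inject-Embed against 2D, by 0.38 ± 0.04 (adjusted p = 2.01e-11) in Mix-Embed against 2D, and by -1.02 ± 0.04 (adjusted p = 2.02e-25) between the 3D cultures, all by edgeR. The summed hepatocyte markers given above were also lowest in Huh7 Inject-Embed, but in Mix-Embed, where TF was higher than in 2D, they were lower than in 2D; their part in the TF change was not tested. In HLF, TF had 0, 1 and 1 counts over the libraries of Inject-Embed, Mix-Embed and 2D.

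TFRC (ENSG00000072274, chr3:196027183-196082189, minus strand), the receptor that brings transferrin into cells, was lower in 3D than in 2D in both lines. In Huh7 it had 491 and 533 CPM in Inject-Embed, 652 and 616 CPM in Mix-Embed and 967 and 931 CPM in 2D. In HLF it had 289.9 and 289.5 CPM in Inject-Embed, 245 and 229 CPM in Mix-Embed and 403 and 400.0 CPM in 2D. No 2 of the 6 groups overlapped, and the lines differed in which 3D culture was lowest: Inject-Embed in Huh7 and Mix-Embed in HLF.

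The Huh7 change of TFRC was -0.89 ± 0.05 (adjusted p = 2.98e-20) in Inject-Embed and -0.58 ± 0.04 (adjusted p = 6.72e-14) in Mix-Embed, both against 2D. The HLF change was -0.47 ± 0.05 (adjusted p = 7.28e-11) in Inject-Embed and -0.76 ± 0.05 (adjusted p = 1.86e-17) in Mix-Embed. These 4 calls held under all 21 alternative settings tried. Between the 3D cultures TFRC moved in opposite directions, by -0.31 ± 0.05 (adjusted p = 9.15e-07) in Huh7 and by 0.29 ± 0.05 (adjusted p = 2.19e-05) in HLF, and the difference between these was itself called, at -0.60 ± 0.07 (adjusted p = 3.14e-09).

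TFR2 (ENSG00000106327, chr7:100620416-100642779, minus strand), a second transferrin receptor that takes part in hepcidin control in hepatocytes, was measured at a lower level. It had 12.9 and 13.4 CPM in Huh7 Inject-Embed, 29.8 and 28.1 CPM in Mix-Embed and 23.5 and 23.2 CPM in 2D. Both Inject-Embed libraries lay below all others of Huh7, as they did for TF. The change was -0.82 ± 0.14 (adjusted p = 1.44e-05) in Inject-Embed against 2D and -1.14 ± 0.14 (adjusted p = 3.25e-08) against Mix-Embed. In Mix-Embed against 2D the value was 0.31 ± 0.13 (adjusted p = 0.0875, 95% interval before adjustment 0.05 to 0.58), and it was called in 3 of 21 alternative settings. In HLF, TFR2 had 1 count in each of the 3 groups.

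SLC11A2 (ENSG00000110911, chr12:50979401-51028566, minus strand) encodes DMT1, which moves ferrous iron out of the endosome. Its level varied little: it had 72.4 and 76.9 CPM in Huh7 Inject-Embed, 97.6 and 86.6 CPM in Mix-Embed and 87.1 and 85.8 CPM in 2D, and between 69.7 and 73.8 CPM in the 6 HLF libraries. Huh7 Mix-Embed and 2D overlapped, as did Huh7 Inject-Embed with the HLF groups of Inject-Embed and 2D. In Huh7 Inject-Embed SLC11A2 changed by -0.21 ± 0.07 against 2D (adjusted p = 0.0146, called in 13 of 21 alternatives, where the adjusted p reached 0.18) and by -0.31 ± 0.07 against Mix-Embed (adjusted p = 0.000667; 0.0752 without Huh7 Mix-Embed replicate 1). In HLF the values were 0.01 ± 0.07 in Inject-Embed (95% interval -0.12 to 0.15) and -0.05 ± 0.07 in Mix-Embed (-0.19 to 0.09), neither of them called.

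FTH1 (ENSG00000167996, chr11:61959718-61967660, minus strand) encodes the ferritin heavy chain, which oxidises iron as it enters the shell, and its 5′ UTR carries the hairpin shown above. It had 936 and 889 CPM in Huh7 Inject-Embed, 873.4 and 873.5 CPM in Mix-Embed and 657 and 702 CPM in 2D. Both 3D cultures lay above 2D, by 0.43 ± 0.05 (adjusted p = 1.02e-09) in Inject-Embed and by 0.36 ± 0.05 (adjusted p = 8.51e-08) in Mix-Embed. Between the 3D cultures the value was 0.06 ± 0.05 (adjusted p = 0.386, 95% interval -0.03 to 0.16).

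In HLF, FTH1 had 265 and 280.4 CPM in Inject-Embed, 252 and 288 CPM in Mix-Embed and 241.4 and 241.2 CPM in 2D. The 3D groups overlapped each other and lay above 2D, by 0.18 ± 0.05 (adjusted p = 0.00913) in Inject-Embed and 0.16 ± 0.05 (adjusted p = 0.0104) in Mix-Embed. These small changes hang on single libraries: without HLF Mix-Embed replicate 2 the Mix-Embed value was 0.07 (adjusted p = 0.431), and without HLF Inject-Embed replicate 2 the Inject-Embed value was 0.14 (adjusted p = 0.152).

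FTL (ENSG00000087086, chr19:48965301-48966878, plus strand) encodes the ferritin light chain, which helps the mineral core to form, and went opposite ways in the lines. In Huh7 it had 3083 and 3169 CPM in Inject-Embed, 2343 and 2436 CPM in Mix-Embed and 2025 and 2074 CPM in 2D. In HLF it had 854 and 874 CPM in Inject-Embed, 837 and 834 CPM in Mix-Embed and 1115 and 1056 CPM in 2D. No 2 groups overlapped: 2D was the lowest culture in Huh7 and the highest in HLF.

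The FTL change against 2D was 0.61 ± 0.04 (adjusted p = 6.5e-18) in Huh7 Inject-Embed and 0.22 ± 0.04 (adjusted p = 6.95e-06) in Huh7 Mix-Embed, and -0.33 ± 0.04 (adjusted p = 2.06e-09) in HLF Inject-Embed and -0.38 ± 0.04 (adjusted p = 2.4e-11) in HLF Mix-Embed. Tested as the Huh7 change minus the HLF change, the difference was 0.94 ± 0.05 (adjusted p = 1.01e-18) for Inject-Embed and 0.60 ± 0.05 (adjusted p = 1.69e-12) for Mix-Embed. Each of these FTL calls held in every alternative tried. Reads of ferritin can also be counted on processed pseudogenes: the 25 listed FTH1 pseudogenes held 0.59% to 1.38% of the counts of FTH1 per library, and the 16 listed FTL pseudogenes 0.0198% to 0.304% of those of FTL. These shares do not show how reads that fit both a gene and a pseudogene were counted.

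Counts of these mRNAs were also set against each other within a library, which needs no scaling between libraries. For every 100 FTH1 counts there were 52.4 and 59.9 TFRC counts in Huh7 Inject-Embed, 74.6 and 70.5 in Mix-Embed, and 147 and 133 in 2D. In HLF there were 109 and 103 in Inject-Embed, 97.3 and 79.5 in Mix-Embed and 167 and 166 in 2D. TFRC mRNA was thus lower relative to FTH1 mRNA in all 8 3D libraries than in any of the 4 2D libraries. The proteins were not measured. FTL counts per FTH1 count were 3.29 and 3.56 for Inject-Embed of Huh7, 2.68 and 2.79 for its Mix-Embed and 3.08 and 2.95 for its 2D culture, against 3.22 and 3.12, 3.32 and 2.89, and 4.62 and 4.38 in the same cultures of HLF. HLF 2D stood above every other library in that ratio, in which the lengths of the mRNAs are not taken into account.

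**Figure D3:**
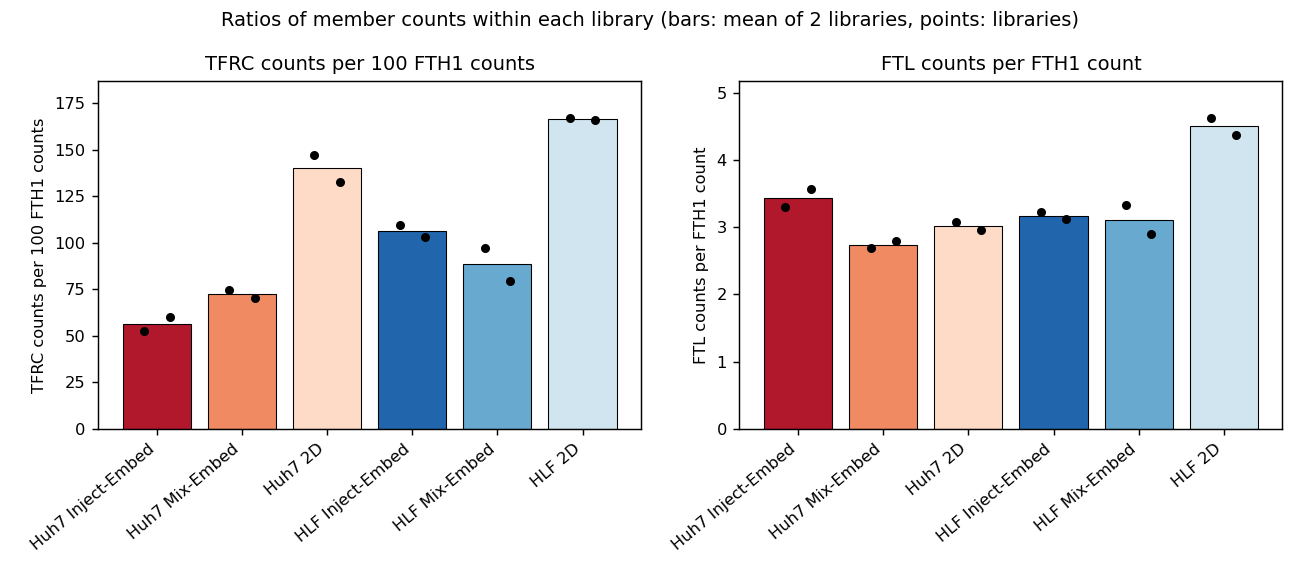
TFRC counts per 100 FTH1 counts (left) and FTL counts per FTH1 count (right) in the 6 groups of line and culture. Bars are the mean of 2 libraries and points the libraries. The TFRC ratio lies between 52.4 and 109 in the 3D libraries and between 133 and 167 in the 2D libraries, and the FTL ratio is highest in HLF 2D.

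SLC40A1 (ENSG00000138449, chr2:189560579-189583758, minus strand) encodes ferroportin, the exporter of iron, and its 5′ UTR carries a hairpin like those of the ferritins. It had 20.9 and 22.1 CPM in Huh7 Inject-Embed, 38.2 and 35.4 CPM in Mix-Embed and 57.7 and 61.1 CPM in 2D. The groups did not overlap, and both 3D cultures lay below 2D. The change was -1.47 ± 0.11 (adjusted p = 1.58e-14) in Inject-Embed against 2D, -0.69 ± 0.10 (adjusted p = 1.54e-06) in Mix-Embed against 2D, and -0.78 ± 0.11 (adjusted p = 9.32e-07) between the 3D cultures.

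HLF held far less SLC40A1 mRNA: 25 and 19 counts in Inject-Embed, 34 and 42 in Mix-Embed and 11 and 13 in 2D, or 1.41 ± 0.30, 2.41 ± 0.12 and 0.750 ± 0.097 CPM (SD, n = 2 each). Here 2D was the lowest group. Mix-Embed lay above 2D by 1.68 ± 0.31 (adjusted p = 3.41e-05), and Inject-Embed by 0.90 ± 0.35, which was not called (adjusted p = 0.0726). The Huh7 change minus the HLF change was -2.36 ± 0.37 (adjusted p = 2.2e-06) for Inject-Embed and -2.36 ± 0.33 (adjusted p = 2.45e-07) for Mix-Embed. Between the 3D cultures the HLF value was -0.78 ± 0.27 (adjusted p = 0.0691), beside the -0.78 of Huh7.

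CP (ENSG00000047457, chr3:149162410-149222055, minus strand), ceruloplasmin, had the largest fall of the members in Huh7 Inject-Embed. It had 56.7 and 59.1 CPM in Inject-Embed, 239.7 and 235 CPM in Mix-Embed and 212 and 199 CPM in 2D. Inject-Embed lay far below both other groups. CP changed by -1.83 ± 0.07 (adjusted p = 3.21e-25) in Inject-Embed against 2D and by -2.04 ± 0.07 (adjusted p = 1.82e-26) against Mix-Embed. In Mix-Embed against 2D it was higher by 0.21 ± 0.06 (adjusted p = 0.00724), but that call was lost in 6 of 21 alternatives, among them DESeq2 (adjusted p = 0.0574) and leaving out Huh7 2D replicate 2 (adjusted p = 0.101). In HLF, CP had 6, 7 and 6 counts in Inject-Embed, Mix-Embed and 2D.

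HAMP (ENSG00000105697, chr19:35280716-35285143, plus strand) encodes hepcidin and was measured at low counts. Huh7 held 26 and 24 counts in Inject-Embed, 70 and 57 in Mix-Embed and 38 and 29 in 2D, or 2.00 ± 0.051, 4.66 ± 0.31 and 2.24 ± 0.41 CPM (SD, n = 2 each). Mix-Embed stood above the other groups, which overlapped each other. The change was 1.05 ± 0.37 (adjusted p = 0.035) in Mix-Embed against 2D and -1.21 ± 0.38 (adjusted p = 0.0171) in Inject-Embed against Mix-Embed. These HAMP calls were lost with DESeq2 (adjusted p = 0.198 and 0.127) and when any library of the groups compared was left out (adjusted p from 0.0734 to 0.22). In Inject-Embed against 2D the value was -0.16 ± 0.41 (adjusted p = 0.845) with a 95% interval of -0.98 to 0.66. HLF had 3 counts, all in 1 library of Inject-Embed, and none in Mix-Embed or 2D.

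IREB2 (ENSG00000136381, chr15:78437431-78501456, plus strand) encodes IRP2, the iron regulatory protein whose amount is set by its degradation when iron is plentiful. It had 234 and 251 CPM in Huh7 Inject-Embed, 237 and 232 CPM in Mix-Embed and 282 and 270.1 CPM in 2D. The 3D groups overlapped each other and lay below 2D, by -0.19 ± 0.05 (adjusted p = 0.00458) in Inject-Embed and -0.24 ± 0.05 (adjusted p = 0.00064) in Mix-Embed. The Inject-Embed call was lost in 4 of 21 alternatives, with an adjusted p of up to 0.14 without Huh7 Inject-Embed replicate 1. In HLF the 6 libraries lay between 82.1 and 92.3 CPM and Inject-Embed overlapped both other groups, while Mix-Embed lay below 2D. The values against 2D were -0.07 ± 0.06 in Inject-Embed (95% interval -0.19 to 0.05) and -0.11 ± 0.06 in Mix-Embed (-0.23 to 0.01), neither called. The difference between the lines was not called either (adjusted p = 0.312 and 0.302).

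Between the lines, the 6 members with counts in both, TFRC, SLC11A2, FTH1, FTL, SLC40A1 and IREB2, were higher in Huh7 wherever they were called. Against HLF, 5 of these 6 were higher in Inject-Embed (77.1% of all genes tested were called, 37.6% higher and 39.5% lower), 6 in Mix-Embed (76.9% called, 37.9% higher and 39.1% lower) and 6 in 2D (77.2% called, 38.1% higher and 39.2% lower). SLC11A2 in Inject-Embed was the exception, at 0.03 ± 0.07 (adjusted p = 0.676, 95% interval -0.11 to 0.17). TF, TFR2, CP and HAMP passed the filter only through Huh7, so their direction was given and their ratios are a description. The ratio of Huh7 to HLF for TF was 217343 in Mix-Embed, where HLF had 1 count (95% counting interval 39008 to 8584620), and at least 35635 in Inject-Embed, where HLF had none and a floor of 3 counts over the group was used. For TFR2 it was 413 in Inject-Embed (73.6 to 16367), 913 in Mix-Embed (163 to 36098) and 746 in 2D (133 to 29517). For CP it was 302 in Inject-Embed (139 to 825), 1068 in Mix-Embed (518 to 2659) and 1095 in 2D (503 to 2985). HAMP was higher in Huh7 by 20.9 times in Inject-Embed (6.76 to 105) and by at least 49.0 times in Mix-Embed and 23.9 times in 2D. These intervals cover counting error only.

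Of the 6 members with counts in both lines, IREB2 was higher in Huh7 by 1.49 to 1.61 on the log2 scale over the 3 cultures (SE 0.06 each). FTH1 was higher by 1.74 ± 0.05, 1.69 ± 0.05 and 1.49 ± 0.05 in Inject-Embed, Mix-Embed and 2D, and TFRC by 0.82 ± 0.05, 1.42 ± 0.05 and 1.24 ± 0.05. The FTL difference was wider in the gel, at 1.85 ± 0.04 in Inject-Embed and 1.52 ± 0.04 in Mix-Embed against 0.92 ± 0.04 in 2D. For SLC40A1, with 24 counts in HLF 2D, it was narrower in the gel. The values were 3.93 in Inject-Embed and 3.93 in Mix-Embed against 6.29 in 2D. Their SE is left out, since with so few HLF counts it can fall below counting error. With library totals in place of TMM, the all-gene median of these comparisons shifted by -0.16, -0.23 and -0.16 (Inject-Embed, Mix-Embed and 2D) and no called member changed direction, but this ended the SLC11A2 call in 2D, which was 0.26 ± 0.07 (adjusted p = 0.000602) and became 0.10 (adjusted p = 0.155).

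The difference between the lines in the culture change was called for 4 of 10 members in Inject-Embed against 2D: FTH1 and FTL were higher and TFRC and SLC40A1 lower in Huh7 (24.8% of all genes were called, 11.7% higher and 13.1% lower). The same 4 genes were called in Mix-Embed against 2D, with only SLC40A1 lower (20.4% of all genes, 10.2% higher and 10.2% lower). Between the 3D cultures FTL was higher and TFRC and SLC11A2 lower (10.6% of all genes, 4.62% higher and 5.95% lower). TFRC fell more in Huh7 than in HLF in Inject-Embed, by -0.42 ± 0.06 (adjusted p = 1.61e-06), and less in Mix-Embed, by 0.18 ± 0.06 (adjusted p = 0.0453). FTH1 rose more in Huh7, by 0.25 ± 0.07 (adjusted p = 0.00536) in Inject-Embed and 0.20 ± 0.07 (adjusted p = 0.0343) in Mix-Embed. The Mix-Embed differences of TFRC and FTH1 did not withstand other settings: they were called in 6 and 7 of 20 alternatives. TF, TFR2, HAMP and CP hold too few counts in HLF for such a test to say anything.

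Other genes of iron metabolism were counted by 8 lists of 83 genes, 80 of which were tested. In Huh7 Inject-Embed against 2D, 26 of the 80 were higher and 10 lower, with a median of 0.08. The list of iron-sulfur cluster assembly leaned furthest one way: 9 of its 16 tested genes were higher and 0 lower (beside the 13.2% and 16.7% of all genes given above), with a median of 0.20. Its largest rises were those of FDXR, which passes electrons to the ferredoxins (3.18 ± 0.21 FPKM in Inject-Embed and 1.76 ± 0.067 FPKM in 2D, log2 change 0.82 ± 0.15, adjusted p = 3.68e-05), and BOLA3, a late-acting assembly factor (0.69 ± 0.13, adjusted p = 4.13e-05). In Huh7 Mix-Embed 2 genes of the list were higher and 1 lower (beside 11.2% and 10.6% of all genes). In HLF 0 were higher and 1 lower in each 3D culture, that 1 being HSPA9, a mitochondrial chaperone. The shares of all genes in HLF were 9.09% and 8.86% in Inject-Embed and 14.4% and 14.6% in Mix-Embed.

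Among the partners of ferritin, NCOA4, the receptor that delivers ferritin to lysosomes, rose in both 3D cultures of Huh7. It had 454 ± 0.70 CPM in Inject-Embed, 508 ± 10 CPM in Mix-Embed and 338 ± 1.2 CPM in 2D, changes of 0.42 ± 0.05 (adjusted p = 6.47e-10) and 0.59 ± 0.05 (adjusted p = 1.19e-13). PCBP1, an iron chaperone that loads ferritin, was higher by 0.18 ± 0.05 and 0.22 ± 0.05. HERC2, of the same list, was lower than in 2D by edgeR in Huh7 Mix-Embed (-0.24 ± 0.06, adjusted p = 0.000944). It was also lower in HLF Inject-Embed (-0.29 ± 0.05, adjusted p = 7.07e-05). In HLF, NCOA4 had 97.0 ± 4.2 CPM in Inject-Embed, 94.6 ± 2.2 CPM in Mix-Embed and 100.2 ± 0.61 CPM in 2D, and the difference between the lines was called in both comparisons, at 0.47 ± 0.07 (adjusted p = 1.02e-06) and 0.67 ± 0.07 (adjusted p = 3.84e-10).

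The list of hepcidin regulation had 21 tested genes. Of these, Huh7 Inject-Embed had 5 higher and 5 lower against 2D (beside 13.2% and 16.7% of all genes) and Huh7 Mix-Embed 6 higher and 4 lower (11.2% and 10.6%). HLF Inject-Embed had 7 higher and 2 lower (9.09% and 8.86%), and HLF Mix-Embed 10 higher and 1 lower (14.4% and 14.6%). Whether the list differed between the lines was not tested. In Huh7 the inhibitory SMAD7 was higher by 1.41 ± 0.12 (adjusted p = 1.64e-12) in Inject-Embed and 1.21 ± 0.13 (adjusted p = 3.38e-10) in Mix-Embed. SOCS3, a brake on STAT3 signalling, had 1.81 ± 0.32 CPM in Inject-Embed, 4.77 ± 0.25 CPM in Mix-Embed and 14.0 ± 2.5 CPM in 2D, changes of -2.95 ± 0.19 (adjusted p = 1.25e-16) and -1.55 ± 0.15 (adjusted p = 6.75e-11). HJV, the BMP co-receptor of hepatocytes, had 23 counts in Inject-Embed and 83 in 2D (-1.59 ± 0.49, adjusted p = 0.0113), and BMP6 had 9 counts in Inject-Embed and 0 in 2D. In HLF, BMP6 was lower in Inject-Embed than in 2D (-2.18 ± 0.74, adjusted p = 0.0328). BMP2 was higher in HLF Inject-Embed and Mix-Embed (1.87 ± 0.49 and 1.68 ± 0.50). ERFE was lower in the same HLF cultures (-0.98 ± 0.23 and -0.92 ± 0.23) but higher in Huh7 Mix-Embed (1.38 ± 0.40). STAT3 was lower in Huh7 Mix-Embed (-0.36 ± 0.06). ID1, a common target of BMP signals, rose in both lines. In Huh7 it had 210.0 ± 6.1 CPM in Inject-Embed, 211 ± 7.9 CPM in Mix-Embed and 109 ± 11 CPM in 2D, changes of 0.95 ± 0.06 (adjusted p = 1.34e-17) and 0.96 ± 0.06 (adjusted p = 2.45e-17). In HLF it had 227 ± 3.9 CPM in Inject-Embed, 287 ± 3.6 CPM in Mix-Embed and 83.7 ± 1.0 CPM in 2D, changes of 1.44 ± 0.06 (adjusted p = 1.73e-23) and 1.78 ± 0.06 (adjusted p = 2.49e-27).

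Among the heme genes, HMOX1, which frees iron from heme, had 36.7 ± 0.49 CPM in Huh7 Inject-Embed, 36.1 ± 1.9 CPM in Mix-Embed and 19.7 ± 1.2 CPM in 2D, and 11.7 ± 1.1, 11.5 ± 0.88 and 21.8 ± 1.5 CPM in the same cultures of HLF. It rose by 0.90 ± 0.11 and 0.87 ± 0.11 in Huh7 and fell by 0.90 and 0.92 on the log2 scale in HLF, and the difference between the lines was 1.79 ± 0.17 in both comparisons (adjusted p = 1.38e-11 and 1.8e-11). The plasma scavengers HP and HPX, which bind hemoglobin and heme, fell in both 3D cultures of Huh7: HP changed by -1.27 ± 0.06 (adjusted p = 2.44e-20) in Inject-Embed and -0.57 ± 0.06 (adjusted p = 5.28e-10) in Mix-Embed, and HPX by -0.89 ± 0.07 (adjusted p = 7.4e-14) and -0.44 ± 0.07 (adjusted p = 3e-06). Outside the transferrin route, the metal importer SLC39A8 rose in HLF, by 0.91 ± 0.28 (adjusted p = 0.017) in Inject-Embed and 1.54 ± 0.26 (adjusted p = 5.82e-06) in Mix-Embed, while SLC39A14, an importer of free iron, fell by 0.37 (adjusted p = 1.28e-08) and 0.36 (adjusted p = 1.17e-08). SLC39A14 also fell in Huh7 Mix-Embed, by 0.24 (adjusted p = 7.71e-06), and in Huh7 Inject-Embed its value was -0.10 ± 0.04 (adjusted p = 0.0511). In HLF, ATP7B, which loads copper into ceruloplasmin in hepatocytes, fell by 1.18 (adjusted p = 3.93e-14) and 0.99 (adjusted p = 1.96e-12).

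**Figure D4:**
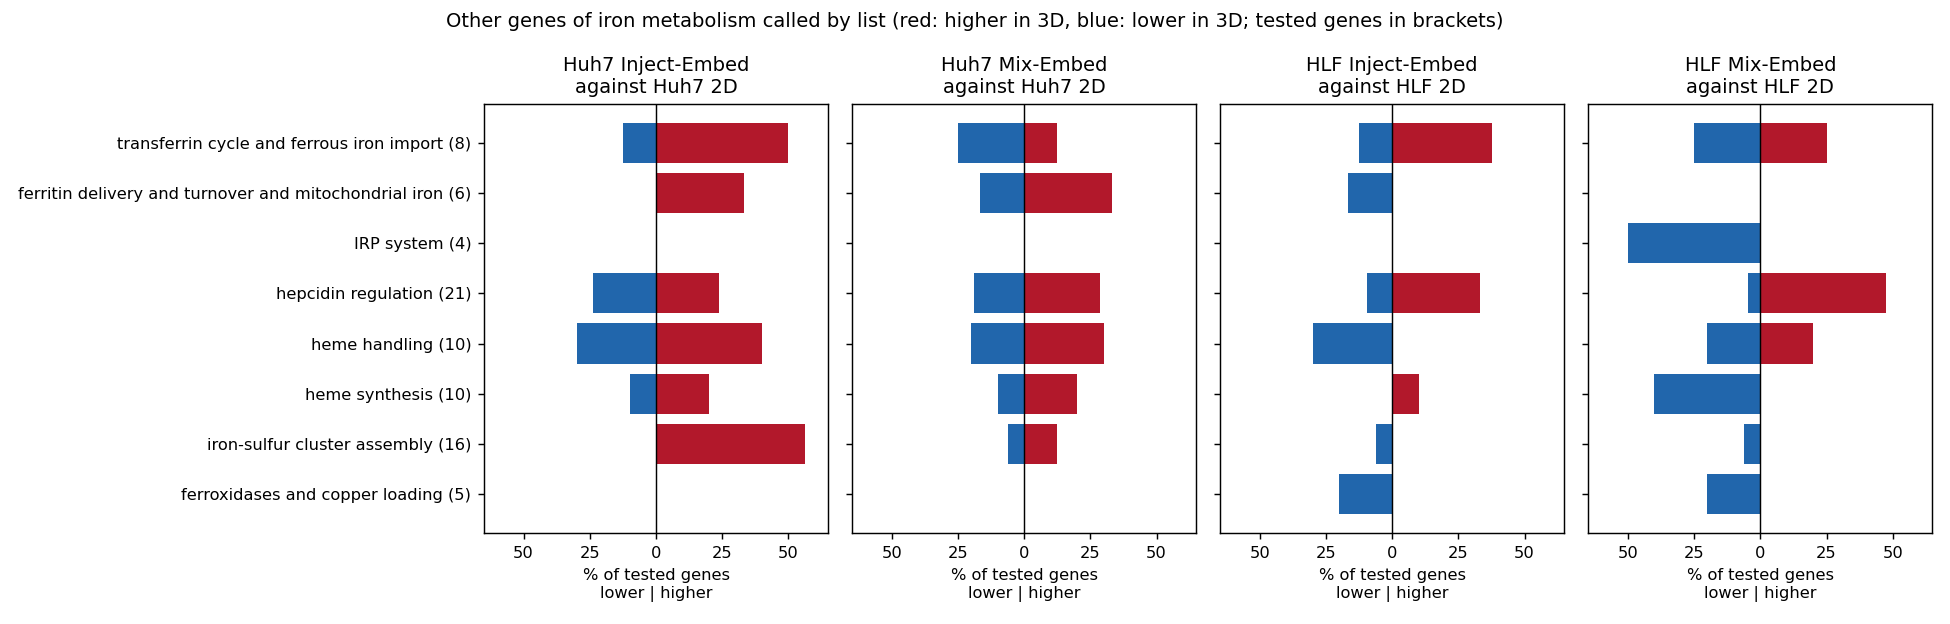
Share of the tested genes of each of 8 lists of iron metabolism that were called higher (red, right of 0) or lower (blue, left of 0) in 3D than in 2D, in percent, for the 4 comparisons with 2D, with the number of genes tested in brackets. Iron-sulfur cluster assembly shows 9 of 16 genes higher and 0 lower in Huh7 Inject-Embed, and hepcidin regulation 10 of 21 higher and 1 lower in HLF Mix-Embed.

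The counts of the remaining lists are given as higher and lower in Inject-Embed and then in Mix-Embed, each against 2D. Of all genes, 13.2% and 16.7%, then 11.2% and 10.6% were so called in Huh7, and 9.09% and 8.86%, then 14.4% and 14.6% in HLF. The list of the transferrin cycle and ferrous iron import (8 genes) had 4 and 1, then 1 and 2 in Huh7. In HLF it had 3 and 1, then 2 and 2. Heme handling (10 genes) had 4 and 3, then 3 and 2 in Huh7, and 0 and 3, then 2 and 2 in HLF. Heme synthesis (10 genes) had 2 and 1, then 2 and 1 in Huh7, and 1 and 0, then 0 and 4 in HLF. The list of ferritin delivery, ferritin turnover and mitochondrial iron (6 genes) had 2 and 0, then 2 and 1 in Huh7. In HLF it had 0 and 1, then 0 and 0. Ferroxidases and copper loading (5 genes) had none called in Huh7, and 0 and 1, then 0 and 1 in HLF. The partners of IRP regulation (4 genes) had none called in Huh7, and in HLF Mix-Embed ACO1, which encodes IRP1, and CUL1 were lower, by -0.20 ± 0.07 (adjusted p = 0.0181) and -0.26 ± 0.07 (adjusted p = 0.00214).

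Finally, genes whose pattern over the 12 libraries was among the most like that of a member were listed, after removing the mean of each line from log2 CPM. For TFRC these included XBP1 (Pearson r = 0.99) and FANCI (0.97). For FTH1 they were LRRC45 (0.97), TPRA1 (0.96) and ARFGAP2 (0.96), for SLC40A1 they included ATF6 (0.98) and HMCN1 (0.97), and for IREB2 they included IPO9 (0.96) and ARID2 (0.95). The 12 points share their libraries and fall into 6 groups, and the r values are descriptions of likeness only.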

How the data were processed

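RNA was measured in 12 libraries of Huh7 and HLF, 2 biological replicates in each of 6 groups, per the labels' design text. The submitters' processing notes name FastQC, Trimmomatic, STAR 2.7.9a, featureCounts and GRCh38. How strand was counted, and which annotation was used, is not given in the sources used here. Without them, reads of TF and of its same-strand neighbours, of CP and HPS3, and of FTH1 and BEST1, whose genes overlap, may have been shared. The authors deposited whole-number counts per gene and FPKM for the same genes, both keyed by Ensembl ID with gene names. The deposited FPKM equal count over gene length and library total, within a relative 1e-06 for all 167453 values of at least 20 counts. Columns naming Embed were read as Mix-Embed.

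The test was edgeR 4.0.16 (R 4.3.3): TMM scaling, filterByExpr with a minimum count of 10 (19342 genes left), a mean for each of 6 groups, quasi-likelihood tests, and Benjamini-Hochberg adjustment over all genes at 0.05. Replicates varied by 4.6% (common dispersion 0.00211), and 6 residual degrees of freedom were left. The procedure was tested on simulated data, and the outcome is not reported here. Alternatives were RLE scaling, library totals, no filter, DESeq2 1.42.0, limma 3.58.1 on log2(FPKM + 1) and log2(FPKM + 0.1), subsets of groups, a replicate block and leaving out each library. Where a group held 0 counts its ratio is a lower bound, computed with 3 counts over that group, and ratios against few counts carry a 95% counting interval. Other intervals are for the fitted log2 change, not adjusted for the number of genes. They use the SE, which was the size of the log2 change over the square root of the test's F statistic. It is not a fitted SE, and for large changes on few counts it can fall below counting error. Replicate pairs differed beyond sampling noise in every group (chi-square per degree of freedom 2.19 to 4.11), so none was merged. The members and the lists were chosen with earlier results of these data known. All members are named. From each list, genes were picked from at most the 2 highest and the 2 lowest called genes per comparison within a line. A gene picked in 1 comparison is in places also given for others, called or not. Such values are those of ID1 in Huh7, NCOA4 in HLF and SLC39A14 in Huh7 Inject-Embed. Some genes of the lists of likeness, and 1 sequence, are not reported here.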

Additional observations from a re-analysis of the deposited data

Results flagged for a closer look

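For 11 member values the culture change differed between Huh7 and HLF by a test of the difference itself, the Huh7 log2 change minus the HLF log2 change in edgeR with adjustment over all genes. In Inject-Embed against 2D these were TFRC (-0.42), FTH1 (0.25), FTL (0.94) and SLC40A1 (-2.36). In Mix-Embed against 2D they were TFRC (0.18), FTH1 (0.20), FTL (0.60) and SLC40A1 (-2.36). In Inject-Embed against Mix-Embed they were TFRC (-0.60), FTL (0.34) and SLC11A2 (-0.37). FTL rose in Huh7 and fell in HLF in both 3D cultures. SLC40A1 fell in both 3D cultures of Huh7 and rose in Mix-Embed of HLF. The values of SLC40A1 in HLF rest on 24 to 76 counts per group. SLC11A2 kept its call in 12 of 20 alternatives. In Mix-Embed against 2D, TFRC and FTH1 kept theirs in only 6 and 7 of 20. Of all genes tested, 24.8%, 20.4% and 10.6% were called for the line difference in these comparisons, in the order given.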

How the results depend on the processing

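No called direction of a member reversed under any of the 21 alternative settings. Of 99 member values, the replicate block kept 98 on their side of the threshold and ended only the TFRC line difference in Mix-Embed against 2D (adjusted p = 0.0566); the deviations of same-numbered libraries were uncorrelated (-0.0243 to 0.0218), so the numbers were not taken as pairs. The 4 members called for the line difference in Mix-Embed against 2D became 2 with library totals, DESeq2, limma on log2(FPKM + 1), limma on log2(FPKM + 0.1) and the groups compared alone, with TFRC and FTH1 no longer called. The 1 member called in HLF Inject-Embed against Mix-Embed became 2 with limma on log2(FPKM + 0.1), where SLC40A1 passed (adjusted p = 0.0424). Leaving out each library in turn gave 7 to 9 members for Huh7 Inject-Embed against 2D, 6 to 8 for Huh7 Mix-Embed, 6 to 8 between them, 2 to 3 for HLF Inject-Embed, 3 to 4 for HLF Mix-Embed, and 2 to 4 for the line difference in Mix-Embed. The genes called in HLF Inject-Embed against Mix-Embed fell to 1011 with DESeq2, 982 and 670 with limma, and 766 to 1046 with any 1 of the 4 libraries compared left out, against 1600. Without any 1 of the HLF Inject-Embed and 2D libraries the genes called between them numbered 2247 to 2294, against 3471, and without Huh7 Mix-Embed replicate 2 those in Huh7 Mix-Embed against 2D 2696, against 4203. With library totals the share of calls that were higher became 63.3% in HLF Inject-Embed (50.6% with TMM), 62.4% in HLF Mix-Embed (49.8%), 52.9% in Huh7 Inject-Embed against Mix-Embed (41.7%), and 37.1% and 61.2% for the line differences in Mix-Embed against 2D (49.9%) and Inject-Embed against Mix-Embed (43.7%). The use of coding length for the order of levels was chosen after seeing the data. Causes of these shifts were not tested.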
